A study of Mus musculus with 9 samples.

Results

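The miR-183/miR-96/miR-182 cluster is a group of 3 microRNA (miRNA) genes, Mir183, Mir96 and Mir182, that lie next to each other on mouse chromosome 6. Each gene gives a short hairpin RNA from which a 5p arm and a 3p arm are cut, so that the cluster has 6 mature arms among the 1679 mature mouse miRNA names in RefSeq. The 3 5p arms were located in the deposited alignments as the 5′ ends whose reads per 1000000 mapped reads (RPMM) equal the entries of these names in the study's list of miRNAs highly expressed in MIN6, and the 3p arms by their distance from the 5p arm within the RefSeq hairpin. That list has 6 entries of the cluster, which are the 3 5p arms and shifted starts of miR-183-5p, miR-182-5p and miR-183-3p, and each fell on exactly 1 position. The study compared library preparation protocols for small RNA sequencing. MIN6, a mouse insulinoma cell line with beta-cell-like properties, was grown in high glucose medium with serum and sequenced as 3 Illumina TruSeq libraries (TS-GAIIx), 3 Illumina v1.5 libraries (v1.5-GAIIx) and 1 Bioo Scientific NEXTflex V2 library (NF-HiSeq). Liver of a single saline-injected, fasted, adult female C57BL/6J mouse was sequenced as 1 TruSeq and 1 NEXTflex library on the HiSeq. The NF-HiSeq library of MIN6 was made from the RNA of a TruSeq library which, by its replicate number, is not among those analysed here, and it was sequenced at another facility and later than the GAIIx libraries, so that protocol, platform, facility and date cannot be told apart in any comparison with it. By the study's methods, RNA of MIN6 was isolated with TRIzol at the site of the GAIIx libraries and with a Norgen column kit at the site of the TruSeq HiSeq libraries, and RNA of liver with the Norgen kit, so that RNA isolation cannot be told apart from the protocol there either.

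The 3 members are transcribed as 1 precursor and are well known from sensory organs, where they are abundant in hair cells and photoreceptors, and from neuroendocrine cells including those of the pancreatic islet. A miRNA pairs with its targets mainly through its seed, bases 2 to 8 from the 5′ end, so that a start shifted by a single base gives a different seed. In the RefSeq annotation of GRCm38.p6 the hairpins are on the minus strand, in the order of transcription Mir183 at chr6:30169668-30169737, Mir96 at chr6:30169446-30169551 and Mir182 at chr6:30165918-30165992. Mir183 and Mir96 are 116 bases apart, Mir96 and Mir182 3453 bases, and the whole cluster spans 3820 bases. In the GENCODE annotation of the same build it is intergenic, between the protein-coding gene Nrf1 and the long noncoding RNA gene Rncr4, which are both on the plus strand. The deposited alignments use mm9, in which the 5p arms start at positions 30119732 (miR-183-5p), 30119528 (miR-96-5p) and 30115986 (miR-182-5p) of chromosome 6.

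The mature sequences of the arms on which the comparisons turn are shown from RefSeq, 5′ to 3′, with the seed in capitals, because the members differ in few bases of the seed and because the first base decides which seed a shifted read carries.
miR-183-5p: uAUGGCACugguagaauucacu
miR-96-5p: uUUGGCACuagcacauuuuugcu
miR-182-5p: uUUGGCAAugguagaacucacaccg
miR-183-5p start +1: aUGGCACUgguagaauucacu
miR-96-5p start +1: uUGGCACUagcacauuuuugcu
miR-183-3p: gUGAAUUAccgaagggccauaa
miR-183-3p start +1: uGAAUUACcgaagggccauaaa
The 3 seeds are all different. Aligned from their first base, miR-183-5p and miR-182-5p had 18 of 22 bases in common, miR-183-5p and miR-96-5p 13 of 22, and miR-96-5p and miR-182-5p 12 of 23. The seed of miR-96-5p is shared with 1 other RefSeq name, miR-1271-5p, which was not on the study's lists, and those of miR-182-5p and miR-183-5p with none. Starting 1 base further downstream, miR-183-5p and miR-96-5p carry the same seed, UGGCACU.

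The deposited counts summed to between 6923460 and 25638871 reads per library. The labelled cells and tissue were checked with miR-375-3p, which is abundant in beta cells, and miR-122-5p, the main miRNA of hepatocytes. On average, miR-375-3p was at 174615 RPMM in TS-GAIIx, 80144 in v1.5-GAIIx and 64950 in NF-HiSeq against 40.0 and 26.7 in the TruSeq and NEXTflex liver libraries, and miR-122-5p was at 17244 and 532452 RPMM in these liver libraries against 0.390, 2.01 and 128 in MIN6. The NF-HiSeq library of MIN6 thus had miR-122-5p at 0.0240% of its level in the NEXTflex liver library, whereas TS-GAIIx had it at 0.00226% of the TruSeq liver level. All 3 hairpins together took 3.94% ± 0.0812 of mapped reads in TS-GAIIx (SD, n = 3), 2.35% ± 0.113 in v1.5-GAIIx, 1.91% in NF-HiSeq, 0.0890% in TruSeq liver and 0.00975% in NEXTflex liver. At least 99.8% of the counts on the cluster were whole numbers, which is how reads with a single place in the genome appear in the files. Reads divided evenly between several places can also add up to a whole number, so that this share does not establish a single place.

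In all 9 libraries miR-182-5p was the most abundant member. miR-183-5p was the next and miR-96-5p the lowest, though NEXTflex liver had only 1 read of miR-183-5p and 0 of miR-96-5p, too few to order them. The distances between the members in MIN6 differed between the protocols. miR-182-5p was at 29156, 29528 and 28310 RPMM in TS-GAIIx, at 11676, 12239 and 13278 RPMM in v1.5-GAIIx, and at 18540 RPMM in NF-HiSeq. The GAIIx groups did not overlap, and NF-HiSeq lay between them. miR-183-5p was at 6913, 7407 and 7015 RPMM in TS-GAIIx, at 5935, 5906 and 6365 RPMM in v1.5-GAIIx, and at 201 RPMM in NF-HiSeq. The GAIIx groups were close but did not overlap, and NF-HiSeq was far below both. miR-96-5p was at 266, 278 and 215 RPMM in TS-GAIIx, at 2966, 2945 and 2960 RPMM in v1.5-GAIIx, and at 97.2 RPMM in NF-HiSeq. Here v1.5-GAIIx was the high group, and NF-HiSeq was again below every GAIIx library.

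**Figure D1:**
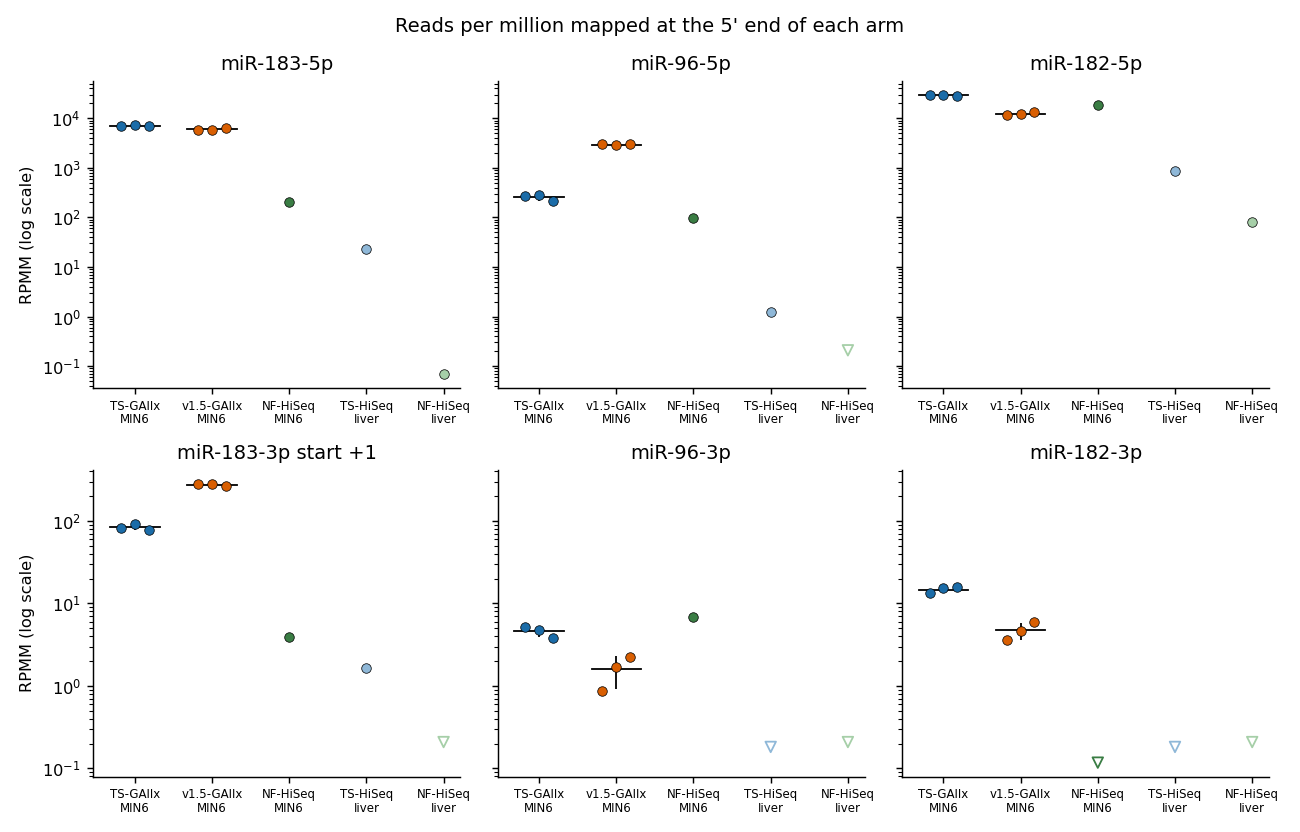
RPMM (log scale) at the 5′ end of each arm in the 9 libraries. Points are libraries, bars the mean and SD of 3 libraries, and open triangles stand at the level of 3 counts for libraries without a read. For miR-183-3p the start +1 is drawn because nearly all its reads begin there. miR-96-5p is near 2960 RPMM in v1.5-GAIIx and 215 to 278 in TS-GAIIx, whereas miR-182-5p is lower in v1.5-GAIIx, and the lowest point of miR-183-5p (0.0695 RPMM, NF-HiSeq liver) is 1 read.

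The comparison of v1.5-GAIIx with TS-GAIIx asks how far the choice between 2 protocols changes what is measured in the same cell line. It is the only comparison with replicates on both sides. The study calls the libraries of a group biological replicates, but the sources do not say what was repeated, so that p-values measure only the spread between these libraries. miR-96-5p was 11.7-fold higher in v1.5-GAIIx (log2 fold change 3.55, SE 0.108, adjusted p = 1.37e-06, quasi-likelihood test of edgeR, p-values adjusted by Benjamini-Hochberg over the 18425 5′ ends tested). miR-182-5p went the other way and was 2.34-fold higher in TS-GAIIx (log2 fold change -1.23, SE 0.0522, edgeR adjusted p = 3.73e-06). miR-183-5p was 1.17-fold higher in TS-GAIIx (log2 fold change -0.23, SE 0.0485, edgeR adjusted p = 0.00375). When 5′ ends were kept whatever their count, miR-182-5p and miR-183-5p no longer passed (edgeR adjusted p = 0.486 and 0.611). Of all 5′ ends tested, 80.0% were called, 51.5% with more reads in v1.5-GAIIx and 28.5% with more in TS-GAIIx, and in 84.0% the groups did not overlap, so that a call as such is near the background. The median log2 fold change over all 5′ ends was 0.83, and 0.32 and 0.31 with the size factors of TMM and DESeq2. Of the tested 5′ ends, 80.5% had a lower log2 fold change than miR-96-5p, 34.1% a lower one than miR-183-5p and 22.5% a lower one than miR-182-5p.

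Among the 3p arms, which are the less abundant strands of the hairpins, the direction was not that of the 5p arm in 2 of 3 hairpins. The 3p arm of miR-183 was read almost entirely from the start +1, with 82.5, 90.8 and 78.0 RPMM in TS-GAIIx, 280, 279 and 266 in v1.5-GAIIx, and 3.95 in NF-HiSeq. It was 3.28-fold higher in v1.5-GAIIx (log2 fold change 1.71, SE 0.0871, edgeR adjusted p = 6.78e-06), while its 5p arm was lower there. The RefSeq start of miR-183-3p, 3.94 to 8.97 RPMM in these 6 libraries, had a log2 fold change of 0.58 that passed only narrowly (SE 0.226, edgeR adjusted p = 0.0480). With either TMM or DESeq2 scaling, or without any of 5 of the 6 libraries, that start did not pass (adjusted p = 0.0602 to 0.889). miR-96-3p was at 5.12, 4.82 and 3.82 RPMM in TS-GAIIx and at 0.873, 1.68 and 2.26 in v1.5-GAIIx, a log2 fold change of -1.50 (SE 0.336, edgeR adjusted p = 0.00487), which is opposite in sign to that of miR-96-5p. In NF-HiSeq miR-96-3p was at 6.81 RPMM, above all 6 GAIIx libraries. miR-182-3p was at 13.4, 15.2 and 15.6 RPMM in TS-GAIIx and at 3.65, 4.61 and 5.87 in v1.5-GAIIx (log2 fold change -1.65, SE 0.195, edgeR adjusted p = 0.000220), in the direction of its 5p arm. No read of miR-182-3p was found in NF-HiSeq, where 3 counts would have been 0.117 RPMM. Every start of the cluster with reads in that library had at least 101 counts, so that this limit may be too low.

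The ratio of the arms therefore differed between protocols. Within 5 nt of the RefSeq starts, the 3p arm made up 0.899% ± 0.0543 of both arms of miR-183 in TS-GAIIx (SD, n = 3) and 3.52% ± 0.250 in v1.5-GAIIx. For miR-96 the 3p share was 1.80% ± 0.106 in TS-GAIIx against 0.0614% ± 0.0250 in v1.5-GAIIx and 6.54% in NF-HiSeq. For miR-182 the 3p share was 0.0592% ± 0.00447 against 0.0537% ± 0.00428, with overlapping groups (two-sided exact permutation test, p = 0.2, n = 3 each). For miR-183 and miR-96 the groups did not overlap and p was 0.1 in the same exact test, the smallest that 3 against 3 libraries allow.

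All 6 RefSeq starts had enough reads to be tested, of which 2 were called with more reads in v1.5-GAIIx and 4 with more in TS-GAIIx. Of all 5′ ends tested, 80.0% were called, 51.5% and 28.5% in the same order. The median log2 fold change of the 6 RefSeq starts was -0.73. It was 0.83 over all 5′ ends and -0.036 over the 983 with at least 100 RPMM in a library. Of the 20 starts that were followed, 14 were tested. The starts +1 and +7 of miR-96-5p were among them only through the group in which they are high, with no more than 4 counts in TS-GAIIx and 8.50 in v1.5-GAIIx respectively, and their values are given as a description. A comparison list of 15 miRNAs known from endocrine cells, neurons and epithelia had 14 members on the study's lists. Of these, 12 were called in favour of v1.5-GAIIx and 2 in favour of TS-GAIIx, again beside 80.0% of all 5′ ends called. Their median log2 fold change was 1.45. Calls of this list did not all hold under other settings, with adjusted p of up to 0.486 (edgeR or DESeq2), as for miR-375-3p. In that list miR-200c-3p, an epithelial miRNA, had a log2 fold change of 3.73 and miR-184-3p, a miRNA of beta cells and the eye, of 1.75. miR-375-3p had a log2 fold change of -1.12, close to that of miR-182-5p. For every 100 reads of miR-375-3p there were 16.7 ± 1.08 of miR-182-5p in TS-GAIIx and 15.5 ± 0.468 in v1.5-GAIIx, with overlapping groups (exact permutation test, p = 0.2, n = 3 each). In the same terms miR-96-5p stood at 0.145 ± 0.0203 and 3.71 ± 0.344, with no overlap (exact permutation test, p = 0.1, n = 3 each).

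**Figure D2:**
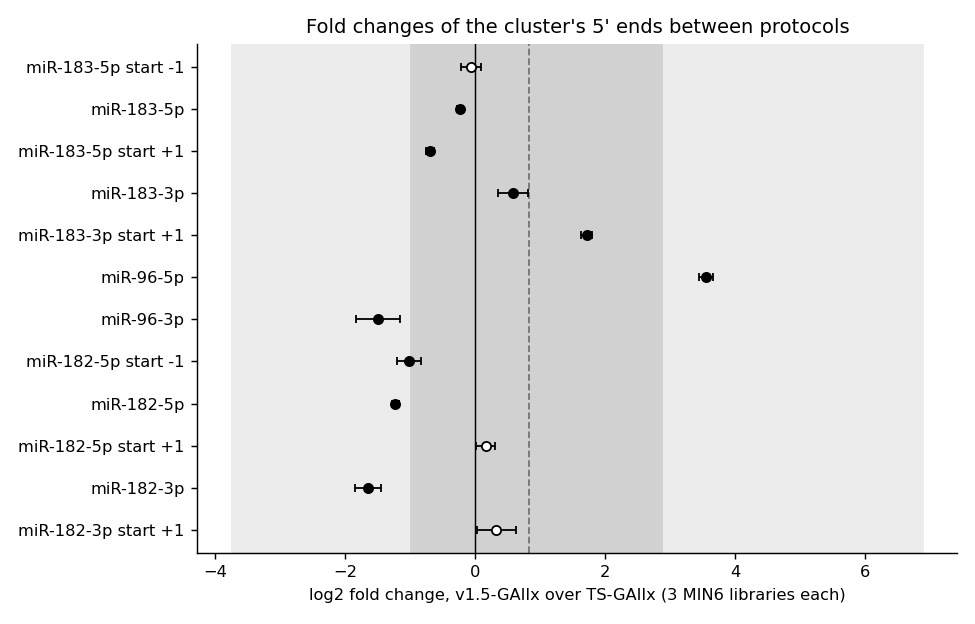
Log2 fold change, v1.5-GAIIx relative to TS-GAIIx in MIN6 (3 libraries each), with its SE, for the 12 tested starts of the cluster that had at least 10 counts in a library of both groups. Filled points had an edgeR adjusted p under 0.05, the dashed line is the median of all 18425 tested 5′ ends (0.83), the dark band runs from their 25th to their 75th percentile and the light band from the 5th to the 95th. All points lie within the light band, with miR-96-5p (3.55) the highest and miR-182-3p (-1.65) the lowest.

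The composition of the cluster does not depend on how libraries are scaled to each other. Of the reads at the RefSeq starts of the 3 5p arms, miR-182-5p made up 79.7% ± 0.454 in TS-GAIIx (SD, n = 3) and 57.8% ± 1.01 in v1.5-GAIIx. miR-183-5p made up 19.6% ± 0.467 and 28.3% ± 0.445, and miR-96-5p 0.695% ± 0.0787 and 13.8% ± 0.670. None of the 3 shares overlapped between the groups (exact permutation test, p = 0.1 each, the smallest possible). In NF-HiSeq the shares were 98.4%, 1.07% and 0.516%, so that miR-182-5p stood almost alone. There were 92.4 reads of miR-182-5p for each read of miR-183-5p in NF-HiSeq, against 4.08 ± 0.122 in TS-GAIIx and 2.04 ± 0.0649 in v1.5-GAIIx. Between miR-183-5p and miR-96-5p the ratio was 2.06 in NF-HiSeq and 2.05 ± 0.0848 in v1.5-GAIIx, against 28.4 ± 3.69 in TS-GAIIx.

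**Figure D3:**
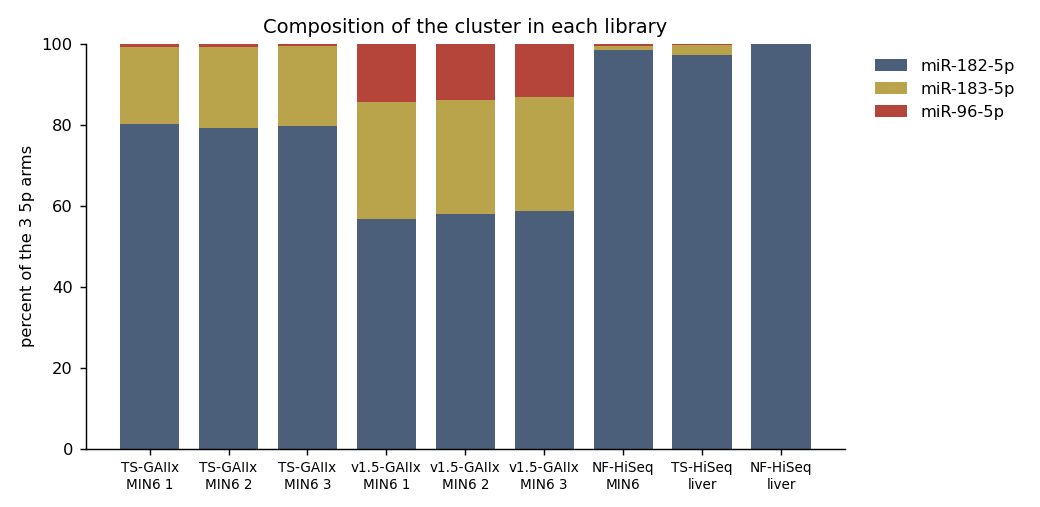
Percent of the reads at the 5′ ends of miR-182-5p, miR-183-5p and miR-96-5p that fell on each of them, 1 bar per library. miR-96-5p takes 13.1% to 14.4% in the v1.5-GAIIx libraries and less than 1% in every other library, and miR-182-5p takes over 97% in NF-HiSeq and in liver.

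These differences move the members through the ranking of the 241 reference miRNAs in the MIN6 list. miR-182-5p ranked 5 in each TS-GAIIx library, 13 in each v1.5-GAIIx library and 9 in NF-HiSeq. miR-183-5p ranked 17 or 18, 24 and 118 in the same order. miR-96-5p ranked between 111 and 128 in TS-GAIIx, 42 in every v1.5-GAIIx library and 166 in NF-HiSeq.

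NF-HiSeq was compared with the GAIIx groups by ratios of RPMM after 1 RPMM was added, with no test because it is 1 library. miR-183-5p was 35.3-fold lower in NF-HiSeq than in TS-GAIIx and 30.1-fold lower than in v1.5-GAIIx. Of the 5′ ends with at least 10 RPMM on either side, 27.7% were more than 10-fold lower in NF-HiSeq than in TS-GAIIx and 32.9% than in v1.5-GAIIx. miR-96-5p was 2.59-fold lower than in TS-GAIIx and 30.1-fold lower than in v1.5-GAIIx. miR-182-5p was 1.56-fold lower than in TS-GAIIx and v1.5-GAIIx stood at 0.669 of the NF-HiSeq level. By counting error alone, its level in NF-HiSeq had a 95% interval of 18487 to 18593 RPMM (exact Poisson), but replicate libraries of the GAIIx groups differed by more than counting error.

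The deposited NF-HiSeq alignments of the cluster held fewer kinds of read. Reads began at 10 positions of the 3 hairpins in NF-HiSeq, each with at least 101 counts, whereas the GAIIx libraries had 44 to 58 start positions, of which 34 to 51 had fewer than 100 counts. In the liver there were 16 start positions in TruSeq and 4 in NEXTflex. Rare starts and arms listed at 0 in the NEXTflex libraries are to be read beside these numbers. Why start positions with low counts are few was not tested.

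In liver all 3 members were lower than in the MIN6 libraries of the same protocol. miR-182-5p was at 848 RPMM in the TruSeq library (95% exact Poisson interval 834 to 862) and at 79.1 in the NEXTflex library (74.6 to 83.8), a 10.7-fold difference (counting interval 10.1 to 11.4). miR-183-5p was at 23.3 RPMM in TruSeq liver, and 1 read of it was found in NEXTflex liver, a 335-fold difference with a counting interval of 59.8 to 13269. miR-96-5p had 20 reads in TruSeq liver, 1.21 RPMM, and none in NEXTflex liver, where 3 counts would have been 0.209 RPMM. With the TruSeq level taken as it stands and 3 counts in place of 0, it was 5.82-fold lower there. The counting interval of the TruSeq level is 0.741 to 1.87 RPMM, and 3 counts are not a firm limit in NEXTflex liver. After 1 RPMM was added, miR-182-5p was 10.6-fold, miR-183-5p 22.7-fold and miR-96-5p 2.21-fold lower in NEXTflex than in TruSeq liver, and 33.3% of the 5′ ends compared were more than 10-fold lower. For miR-183-5p and miR-96-5p these ratios are set largely by the added value. miR-182-5p was no longer past 10-fold when libraries were scaled by the sum of all counts (0.102 of the TruSeq level), with alignments without mismatch only (0.113), or with all starts within 5 nt summed (0.115). miR-182-5p was the only name of the cluster on the study's liver list, where it ranked 43 of 115 reference miRNAs in TruSeq and 98 in NEXTflex. Whether a low level in tissue comes from few cells with much of the miRNA or many cells with little cannot be told apart in bulk RNA.

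TruSeq libraries of MIN6 and liver differ not only in source but also in platform and RNA isolation, which cannot be told apart here. Between them, MIN6 was above liver 34.2-fold for miR-182-5p, 292-fold for miR-183-5p and 115-fold for miR-96-5p, again after adding 1 RPMM, and 18.9% of the 5′ ends compared were more than 10-fold higher in MIN6. The ratio of miR-96-5p rests on 20 liver reads and on the added value, and it was 209 with nothing added. Within NEXTflex, MIN6 was above liver 231-fold for miR-182-5p, where 24.7% of 5′ ends were more than 10-fold higher. For the other members the NEXTflex liver library gives no firm ratio. miR-96-5p was 466-fold higher in MIN6 when 3 counts were set in place of 0. Reads began at only 4 positions of the cluster in that liver library, so that this value is not a firm lower bound. The 1 read of miR-183-5p in liver gave a ratio of 2888 with a counting interval of 518 to 114099. As a share of its MIN6 level, liver held miR-182-5p at 2.92% in TruSeq and 0.427% in NEXTflex, and miR-375-3p at 0.0229% and 0.0411%. miR-183-5p was at 0.328% in TruSeq and, from 1 read, at 0.0346% in NEXTflex, too few reads to place it above or below miR-375-3p. miR-96-5p was at 0.480% in TruSeq and had no read in NEXTflex liver. The composition in TruSeq liver was 97.2% miR-182-5p, 2.67% miR-183-5p and 0.139% miR-96-5p, closer to NF-HiSeq than to TS-GAIIx in MIN6.

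Most reads of miR-183-5p began at 2 positions. Of all reads within 5 nt of the RefSeq start, those starting 1 nt downstream made up 27.0%, 27.1% and 28.6% in TS-GAIIx, 21.4%, 21.5% and 21.8% in v1.5-GAIIx, 19.5% in NF-HiSeq and 17.8% in TruSeq liver. The share of this form, whose seed is also that of miR-96-5p start +1, was higher in TS-GAIIx than in any other library. Its level was 48.6 RPMM in NF-HiSeq and 5.09 in TruSeq liver, and no read of it was found in NEXTflex liver. It was at 2571, 2757 and 2816 RPMM in TS-GAIIx and at 1625, 1628 and 1784 RPMM in v1.5-GAIIx (log2 fold change -0.69, SE 0.0617, edgeR adjusted p = 6.25e-05), and it did not pass when 5′ ends were kept whatever their count (edgeR adjusted p = 0.371). In TS-GAIIx the shifted form of miR-183-5p was above miR-96-5p itself, 2715 against 253 RPMM on average, whereas in v1.5-GAIIx it was below it, 1679 against 2957 RPMM. Of the reads of miR-96-5p, 91.3% to 93.2% began at its RefSeq start in TS-GAIIx and 99.7% in each v1.5-GAIIx library. Within 5 nt of that start, its start +1 made up 0.0685% ± 0.0780 in TS-GAIIx and 0.0940% ± 0.0128 in v1.5-GAIIx, with overlapping groups. For miR-182-5p the start +1 made up 0.0611% ± 0.00688 in TS-GAIIx, 0.160% ± 0.0219 in v1.5-GAIIx and 0.796% in NF-HiSeq. Its level, 15.9 to 22.7 RPMM over the 6 GAIIx libraries, did not pass the test (log2 fold change 0.16, SE 0.145, edgeR adjusted p = 0.335), its sign changed with TMM or DESeq2 scaling, and it passed with alignments without mismatch only (0.41, edgeR adjusted p = 0.0419).

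The start -1 of miR-182-5p was also followed, 8.03 to 8.47 RPMM in TS-GAIIx, 3.09 to 4.72 in v1.5-GAIIx and 37.4 in NF-HiSeq. In the MIN6 libraries 92.6% to 99.6% of these reads had a mismatch at their first base, against 50.2% in TruSeq liver and 100% in NEXTflex liver. In NEXTflex liver this start held 263 reads, 18.8% of the arm, and all 263 were a single form of read with that mismatch. The study's methods state that a fixed number of bases was removed from both ends of NEXTflex reads, and its part in these starts was not tested. The 1138 reads at the RefSeq start of miR-182-5p in that library were also concentrated, with 433, 336 and 307 of them in the 3 commonest forms and 13 in the next. In TruSeq liver the 3 commonest forms held 3109, 2896 and 2074 of 13978 reads, followed by 1564. The lengths of miR-182-5p in NEXTflex liver therefore rest on 3 forms.

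For the 3p arm of miR-183 the annotated start was the minor one. The start +1 made up 91.8%, 95.7% and 93.8% of its reads in TS-GAIIx, 97.2%, 96.7% and 97.2% in v1.5-GAIIx, and all reads in NF-HiSeq (101 reads) and TruSeq liver (27 reads). The seed carried by most reads of this arm was therefore GAAUUAC rather than UGAAUUA. The groups did not overlap (exact permutation test, p = 0.1, n = 3 each), but the means differed by 3.28 percentage points only. Every start of the cluster with reads in NF-HiSeq had at least 101 counts, and TruSeq liver held 27 reads of this arm. A minor start could be missed in both.

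**Figure D4:**
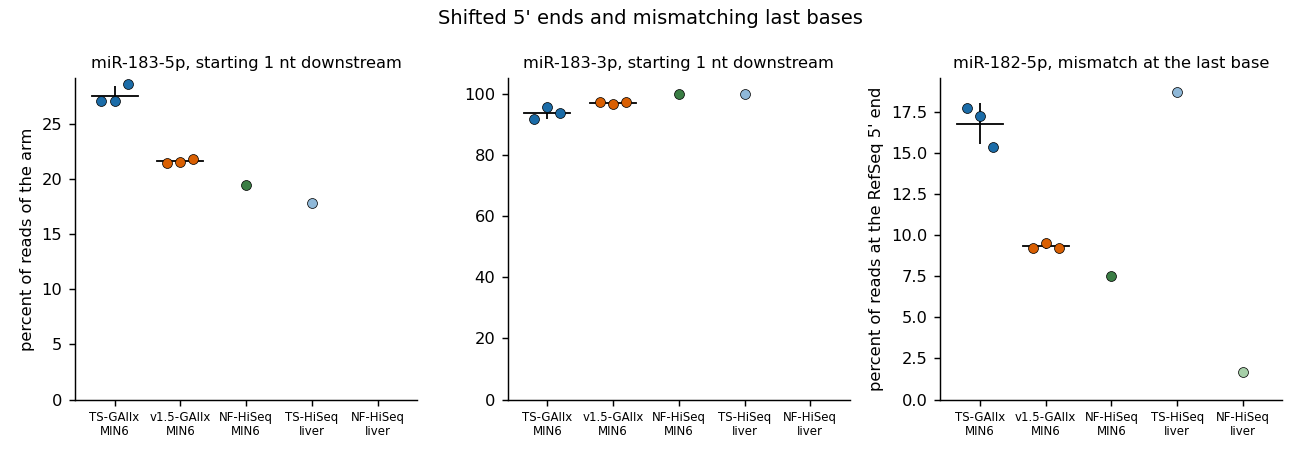
Percent of reads in each library that start 1 nt downstream of the RefSeq 5′ end, for miR-183-5p and miR-183-3p, and percent of miR-182-5p reads whose last base mismatches the genome. Points are libraries and bars the mean and SD of 3 libraries. NEXTflex liver is left out of the first 2 panels, since it had 1 read of miR-183-5p and none of miR-183-3p. TS-GAIIx lies highest in the first panel, and the TruSeq libraries of both sources lie highest in the last.

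The lengths of reads that start at the RefSeq 5′ end differed between members and between protocols. miR-182-5p, annotated at 25 nt, had a broad distribution with its mode at 25 nt in MIN6. Reads of 25 nt made up 27.0% ± 1.10 in TS-GAIIx (SD, n = 3), 43.1% ± 0.553 in v1.5-GAIIx and 63.0% in NF-HiSeq. In TruSeq liver they made up 8.37%, and there the commonest length was 24 nt with 24.7%. In NEXTflex liver, where most reads were of a few forms, the commonest length was 25 nt with 39.1%. The commonest length of miR-183-5p in the GAIIx libraries was 22 nt, with 42.9% ± 0.123 in TS-GAIIx and 49.0% ± 0.185 in v1.5-GAIIx, and its 23 nt reads made up 33.8% ± 0.0849 and 20.6% ± 0.228. In NF-HiSeq the lengths of 22 and 23 nt were about equal for miR-183-5p, 35.8% and 36.1%. miR-96-5p was the most uniform member, with 86.9% ± 0.206 of reads at 23 nt in TS-GAIIx, 70.5% ± 1.35 in v1.5-GAIIx and 79.2% in NF-HiSeq. The second length of miR-96-5p was 22 nt in v1.5-GAIIx, with 26.6% ± 1.22, and 21 nt in NF-HiSeq, with 13.3%. The mean length in v1.5-GAIIx minus that in TS-GAIIx was -0.353 nt for miR-183-5p, -0.148 nt for miR-96-5p and 0.111 nt for miR-182-5p. The groups did not overlap for any of the 3 members (exact permutation test, p = 0.1 each, n = 3 each).

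**Figure D5:**
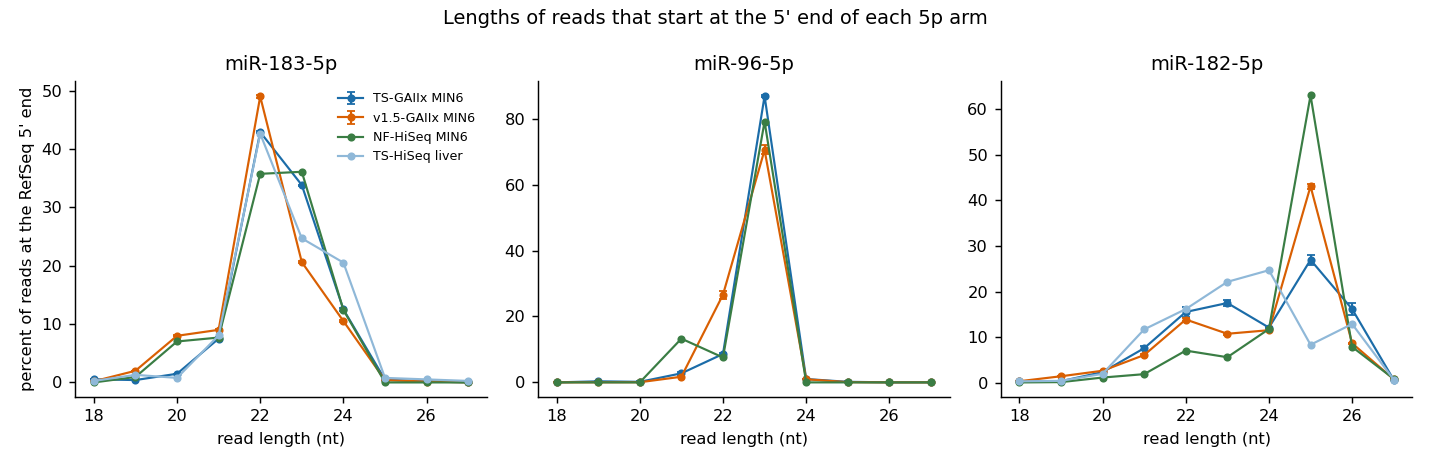
Percent of the reads at the RefSeq 5′ end of each 5p arm that have each length from 18 to 27 nt. Lines join the means, bars are the SD of 3 libraries, and NF-HiSeq and TruSeq liver are 1 library each. TruSeq liver is left out for miR-96-5p, which had 20 reads there. miR-182-5p peaks at 25 nt in MIN6 under each protocol and at 24 nt in TruSeq liver. NEXTflex liver is not drawn, and the commonest length of miR-182-5p there was 25 nt.

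Reads whose last base did not match the genome were most frequent for miR-182-5p. They made up 16.8% ± 1.25 of its reads in TS-GAIIx, 9.33% ± 0.175 in v1.5-GAIIx, 7.49% in NF-HiSeq, 18.7% in TruSeq liver and 1.67% in NEXTflex liver. The main form was the full-length miRNA with a uridine that the genome does not hold, printed here with the added base in capitals because it accounted for most of these reads in MIN6.
miR-182-5p with 1 added base: uuuggcaaugguagaacucacaccgU
Counted from the 5′ end of the miRNA, with the genome's base first, this is G26U. It made up 11.7% ± 0.996 of miR-182-5p reads in TS-GAIIx, 5.70% ± 0.231 in v1.5-GAIIx, 4.07% in NF-HiSeq and 10.7% in TruSeq liver. The adenosine form, G26A, made up 2.86% ± 0.112, 1.51% ± 0.0689, 2.12% and 1.39% in the same order. Reads of 26 nt that matched the genome made up 1.18% ± 0.0708 and 1.10% ± 0.0286 in the GAIIx groups, with overlap (exact permutation test, p = 0.3, n = 3 each). For the mismatching share and both added bases, the GAIIx groups did not overlap (exact permutation test, p = 0.1 each, n = 3 each).

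The other members had fewer such reads in MIN6. For miR-183-5p the last base mismatched in 5.01% ± 0.0475 of reads in TS-GAIIx and 5.11% ± 0.185 in v1.5-GAIIx, with overlapping groups (exact permutation test, p = 0.5, n = 3 each). Most of these ended in A, 4.22% ± 0.0259 of all reads in TS-GAIIx, 4.0% ± 0.191 in v1.5-GAIIx, 5.88% in NF-HiSeq and 5.98% in TruSeq liver. For miR-96-5p the share was 1.28% ± 0.105 in TS-GAIIx and 1.16% ± 0.0928 in v1.5-GAIIx, again with overlapping groups (exact permutation test, p = 0.2, n = 3 each). No single base made up most of them in TS-GAIIx, where 0.476% ± 0.181 of all reads ended in such an A, 0.395% ± 0.0483 in U and 0.305% ± 0.0930 in G.

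A minor set of reads began inside the 5p arms, 7 nt downstream of the RefSeq start. For miR-96-5p this start passed the rule of at least 1% of the arm's reads. Of its reads in TS-GAIIx, 95.3% to 97.9% were 16 nt long and ran to the annotated 3′ end, as in the sequence printed here to show which part of the miRNA is left.
miR-96-5p from +7: cuagcacauuuuugcu
It was at 21.5, 18.1 and 18.5 RPMM in TS-GAIIx, where it made up 6.05% to 7.87% of the arm, and at 0.370, 0.712 and 0.481 RPMM in v1.5-GAIIx. The v1.5-GAIIx libraries held 4.67, 8.50 and 5 counts of it. It was thus low in the group in which the full-length miR-96-5p was high. At the same offset the other members stood at 32.3 ± 3.56 RPMM in TS-GAIIx against 0.400 ± 0.274 in v1.5-GAIIx for miR-183-5p and 10.5 ± 1.75 against 1.58 ± 0.588 for miR-182-5p. The offset was chosen from miR-96-5p in the group in which it is high, and these values are a description. Counts that are not whole numbers come from reads with several places in the genome. At the miR-96-5p start +7, whole numbers made up 2.10%, 99.5% and 99.2% of the counts in the TS-GAIIx libraries. Reads divided evenly between places can also add up to a whole number, so these shares do not show which reads had 1 place. Among reads starting 6 to 15 nt inside the arm in TS-GAIIx, 41.1% to 48.2% of the counts were whole numbers for miR-183-5p and 68.8% to 86.8% for miR-182-5p. Of those reads 96.7% to 98.8% were 14 to 17 nt long for miR-183-5p, against 39.3% to 44.7% for miR-182-5p.

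Finally, each 5p arm was compared with the other reference miRNAs of the MIN6 list by the Pearson correlation of log2(RPMM + 1) over the 9 libraries, which is a description of likeness across 5 groups and not a test. Nearest to miR-183-5p were miR-300-3p (r = 0.999), miR-186-5p (r = 0.997) and miR-381-3p (r = 0.996). Nearest to miR-96-5p were miR-127-5p (r = 0.995), miR-708-5p (r = 0.994) and miR-299-3p (r = 0.994). Nearest to miR-182-5p were miR-383-5p (r = 0.997), miR-342-3p (r = 0.991) and miR-181a-3p (r = 0.991). These are the highest values in the list by choice. Between the members r was 0.924 between miR-182-5p and miR-183-5p, 0.906 between miR-183-5p and miR-96-5p, and 0.799 between miR-182-5p and miR-96-5p. The libraries of a group share their protocol and cells, so that the 9 points are not independent.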

How the data were processed

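The data are small RNA reads of 7 MIN6 and 2 liver libraries. Per the labels and the study's methods, the authors trimmed 3′ adapters of the Illumina libraries with cutadapt, removed the degenerate adapter bases at both ends of NEXTflex reads, aligned reads to mm9 with Bowtie and divided reads with several equal places evenly. The authors deposited the resulting expected counts, 1 line per distinct alignment. Trimming and alignment were not repeated, and the TruSeq HiSeq libraries of MIN6 were not analysed here.

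For each 5′ end the expected counts were added up and expressed as RPMM, relative to the study's totals of mapped reads. Positions were named by matching RPMM to the study's lists, which placed 358 of 358 MIN6 names and 178 of 178 liver names (relative tolerance 3e-05), and the 3p arms by their offset from the 5p arm in the RefSeq hairpin. Mature sequences are from RefSeq (GRCm38.p6), and coordinates of the builds were not converted. Of 14273 alignment lines with a mismatch on the 3 hairpins, 0 gave the hairpin's own base, so that edit strings were read as bases of the read.

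v1.5-GAIIx was compared with TS-GAIIx by the edgeR 4.0.16 quasi-likelihood test (R 4.3.3) on rounded counts of 5′ ends with at least 10 counts in at least 3 of 6 libraries, taking mapped reads for library size, with Benjamini-Hochberg adjustment (threshold 0.05). The fit was tested on simulated data. DESeq2 1.42.0 and other settings were tried as alternatives. Shares and lengths were compared by two-sided exact permutation tests over libraries. Comparisons with 1 library on a side have no test, and a ratio over 10 after adding 1 RPMM counts as a difference. Intervals are exact at 95%. They and the limit of 3 counts cover counting error only, since reads without molecular identifiers are not independent molecules. Other steps ran in Python 3.11.15 (matplotlib 3.10.9, SciPy 1.17.1, pandas 2.3.3 and numpy 2.4.6).

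Named starts are the RefSeq start of each arm and the starts 1 nt to each side, and other starts with at least 1% of the arm's reads in a library with at least 100 reads of the arm. Values are given for 3 members of the comparison list of 15, for a further one whose sign changed with the processing, chosen after its values were seen, and for the 3 miRNAs most correlated with each 5p arm. The members and lists were chosen with earlier results of these data known. Replicates of a group differed by more than sampling noise (chi-square per degree of freedom 40.5 to 176), so all were kept. Same-numbered TruSeq and v1.5 libraries did not deviate together (correlations 0.237, -0.0662 and 0.0110), so that the numbers do not pair them.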

Additional observations from a re-analysis of the deposited data

Results flagged for a closer look

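Reads outside the arms were found on the cluster in the MIN6 libraries of both GAIIx groups and were compared with the limit of 3 counts that a count of 0 allows. Directly after the 25 bases of miR-182-5p, in the loop of the hairpin, reads began at 32.1, 30.9 and 36.3 RPMM in TS-GAIIx and at 6.03, 5.08 and 3.66 RPMM in v1.5-GAIIx (exact permutation test, p = 0.1, n = 3 each), with 1 read in TruSeq liver and none in the NEXTflex libraries. Of these reads 95.6% to 99.0% were 18 nt long in the GAIIx libraries, which is the sequence given here because it shows that 1 defined form was read.
miR-182 loop: guaagguaaugggacccg
In TS-GAIIx the loop was thus above the RefSeq start of miR-182-3p (14.7 RPMM on average). In v1.5-GAIIx the loop was about equal to that start on average (4.92 against 4.71 RPMM), and the start +1 of miR-182-3p held a further 1.77 RPMM.

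On the opposite strand of the locus, 4, 9 and 21.2 counts were found in TS-GAIIx and 15, 5.07 and 10 in v1.5-GAIIx, against 2 in TruSeq liver and none in the NEXTflex libraries. These are at most 1.76 RPMM.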

How the results depend on the processing

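Depth limits the 3p arms and liver, where several values rest on fewer than 50 reads. The NEXTflex libraries are limited too, since they hold few start positions with low counts at the cluster. Fold changes depend on the library size chosen. miR-182-5p, miR-183-5p and miR-96-5p had log2 fold changes of -1.72, -0.72 and 3.06 with TMM and of -1.74, -0.74 and 3.04 with DESeq2, and each passed the test with both. Without any filter miR-182-5p (-1.23, adjusted p = 0.486) and miR-183-5p (-0.23, adjusted p = 0.611) did not pass and miR-96-5p did. Start +1 of miR-183-5p did not pass either (adjusted p = 0.371). The cause was not tested. Leaving out each library gave -1.28 to -1.18, -0.26 to -0.20 and 3.44 to 3.62. With a replicate block the values were -1.23, -0.23 and 3.56, and 14509 of 18425 5′ ends were called against 14736. The block changed no call of these members.

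The number of called 5′ ends was 886 of 983 with at least 100 RPMM in a library (438 higher in v1.5-GAIIx, 448 higher in TS-GAIIx), 4424 of 7339 with whole-number counts only, 5842 of 6947 with reads of 20 to 25 nt only and 27355 of 718669 without a filter. It was 14094 to 14737 when each library was left out.

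Some signs changed. The log2 fold change of miR-183-5p start -1 ranged from -0.15 to 0.057 when each library was left out, with the change of sign on leaving out TS-GAIIx replicate 2 (-0.06 with all), and it passed with TMM (-0.56) and DESeq2 (-0.58). That of miR-182-5p start +1 was -0.34 with TMM and -0.36 with DESeq2 (0.16 as reported). That of miR-182-3p start +1 was -0.21 with TMM, -0.18 with DESeq2 and -0.18 with reads of 20 to 25 nt. miR-9-5p of the comparison list was called and changed sign with whole-number counts only (-0.56, adjusted p = 0.486). The difference in the share of miR-96-5p start +1 ranged from -0.00875 percentage points without TS-GAIIx replicate 1 to 0.0680 without TS-GAIIx replicate 3.

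Ratios with 1 library on a side moved as follows. With all starts within 5 nt summed, the ratio of NF-HiSeq to TS-GAIIx was 0.0254 for miR-183-5p, that of NEXTflex to TruSeq liver was 0.115 for miR-182-5p, and those of MIN6 to liver were 332 for miR-183-5p in TruSeq and 190 for miR-182-5p in NEXTflex. With alignments without mismatch only, the ratios for miR-182-5p were 0.708 (NF-HiSeq to TS-GAIIx), 0.113 (NEXTflex to TruSeq liver) and 218 (MIN6 to liver in NEXTflex). Scaled by the sum of all counts, NEXTflex to TruSeq liver was 0.102 for miR-182-5p, which is no longer past 10-fold. Adding 5 RPMM in place of 1 gave 251 for miR-183-5p and 41.5 for miR-96-5p in MIN6 over TruSeq liver, and miR-96-5p was at 193 with 0.1 RPMM and at 209 with nothing added, an alternative chosen after the data were seen.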
